A study of Rattus norvegicus with 32 samples.

Results

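The 10 genes described here encode the cytosolic HSP90 and HSP70 chaperones and the co-chaperones that drive their cycle: Hsp90aa1, Hsp90ab1, Hspa8, Hspa4, Dnaja1, Dnaja2, Dnajb1, Dnajb6, Stip1 and Ptges3. They were taken by symbol, 1 row each, from 17216 gene rows of the count tables. Each library holds the polyadenylated RNA of either the soma or the dendrites of 1 cultured neuron, and 16 neurons gave 16 soma and 16 dendrite libraries. All neurons were wild type, labelled pyramidal, taken from the hippocampus of Sprague Dawley rats at embryonic day 18 and kept in culture for 15 days. RNA aspirated from each compartment went through 3 rounds of antisense RNA amplification. The numbers in the titles pair a soma with the dendrites of the same cell. Several cultures and days contributed cells, and the labels do not say which neuron came from which, so p-values measure the spread between these cells.

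HSP70 proteins bind hydrophobic stretches of unfolded clients in a cycle of ATP binding and hydrolysis. J-domain proteins of the DNAJ families bring clients and speed up hydrolysis, and nucleotide exchange factors of the HSP110 type let the client go. HSP90 acts later on a narrower set of clients, such as kinases and steroid receptors. The adaptor STIP1 can hold both chaperones, and PTGES3, also called p23, steadies the ATP-bound form of HSP90. In neurons the constitutive HSP70, HSPA8, also strips clathrin from recycled vesicles. Part of the family is induced by heat through heat shock elements, runs of the unit GAA in alternating orientation, which heat shock factors bind.

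Promoters of 8 of the 10 genes were matched by symbol in the RefSeq promoter table of build GRCr8, each with 250 bases before and 50 after the gene's start. The letters GAANNTTC or TTCNNGAA, each its own reverse complement and so read on both strands, were in 5 of these 8 windows and in 15.9% of all 33469 windows of this length. Runs of 3 units, in which these 2 motifs overlap by sharing their middle unit, were in 2 of the 8, Hspa8 and Dnaja1, and in 0.798% of all windows. A match describes the letters only. The upstream stretches of Hspa8, which varied least between somata after TMM scaling, and of Dnajb1 and Stip1, the pair with the highest rank correlation in dendrites, are shown with matched units in capitals, 5′ to 3′ on the gene's strand.
Hspa8 (chr8:50080264-50080511, plus strand; runs start 213 and 55 bases before the gene): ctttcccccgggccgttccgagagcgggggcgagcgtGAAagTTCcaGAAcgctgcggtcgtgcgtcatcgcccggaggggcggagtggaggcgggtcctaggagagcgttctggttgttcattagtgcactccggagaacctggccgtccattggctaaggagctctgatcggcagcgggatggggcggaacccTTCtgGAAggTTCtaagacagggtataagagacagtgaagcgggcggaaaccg
Dnajb1 (chr19:41431142-41431192, minus strand; unit starts 11 bases before the gene): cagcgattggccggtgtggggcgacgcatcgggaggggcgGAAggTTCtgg
Stip1 (chr1:213657655-213657702, minus strand; unit starts 8 bases before the gene): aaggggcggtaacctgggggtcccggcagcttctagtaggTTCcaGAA

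Libraries held between 229149 and 24721811 gene counts. As for the pyramidal label, every library reached 10 counts of the pyramidal marker Neurod6, while the other pyramidal markers given here did so in fewer. Of the vesicular glutamate transporter genes, Slc17a6 did so in 11 somata and 8 dendrite samples and Slc17a7 in 5 and 2. Neurod2 did so in 7 and 12, Nrgn in 8 and 10, Camk2a in 5 and 4 and Tbr1 in 0 and 2. Among inhibitory neuron markers, Gad1 did so in 7 and 11, Slc32a1 in 6 and 6, Dlx1 in 3 and 3, and Gad2, Dlx5 and Lhx6 in 2 and 2 each, and Dlx2 was at 0 in all. The part of these markers in the results below was not tested. Summed over the 11 astrocyte markers, the level lay between 0.648 and 619.6 CPM (counts scaled to a library total of 1000000) in soma and between 40.3 and 2512 CPM in dendrites. Of the 8 microglia markers, Aif1, Cx3cr1, C1qa, C1qb and C1qc were at 0 in every library. The dendrite library of neuron 20 stands apart: its TMM factor, which corrects a library's scale for its composition, was 0.159, against 0.659 to 1.76 in the other 31. Results that rest on it are given with and without it.

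**Figure D1:**
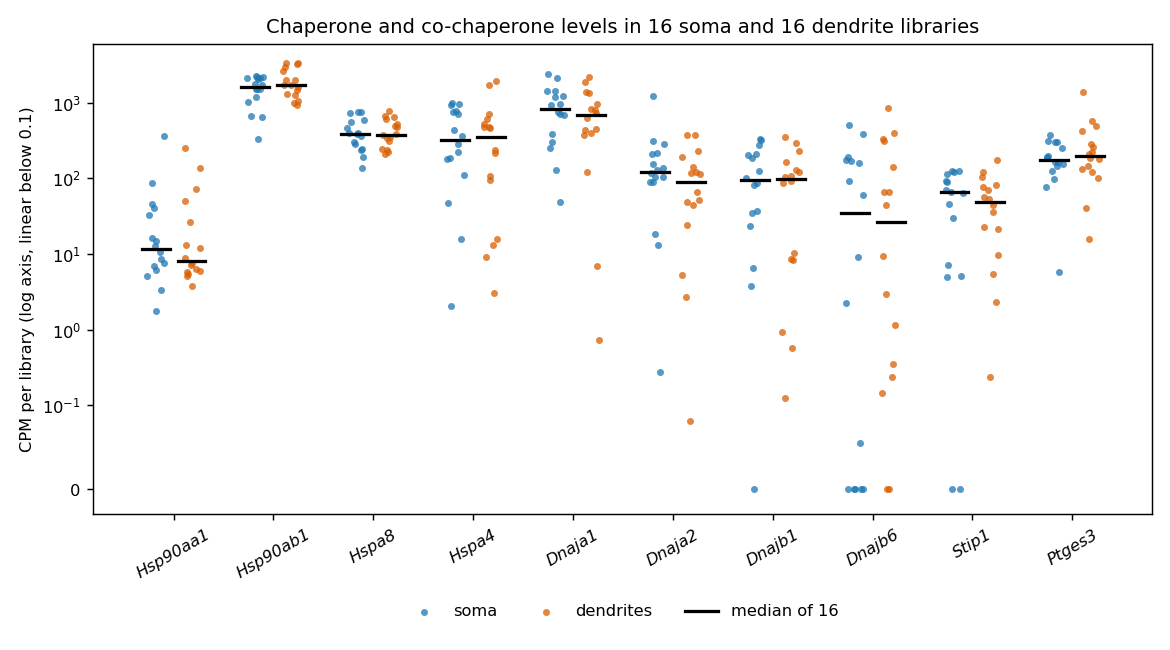
CPM of the 10 genes in each of 16 soma and 16 dendrite libraries, on a log axis that is linear below 0.1, with a bar at each median. Hsp90ab1 and Hspa8 form narrow bands in both compartments, and Dnajb6 runs from 0 to 859 CPM.

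The 10 genes together took 0.408 ± 0.0911% of the gene counts in soma and 0.444 ± 0.134% in dendrites (SD, n = 16 each). CPM depends on transcript length, which the tables do not give, so levels are compared between libraries and not between genes. Of the 10 genes, 5, Hsp90ab1, Hspa8, Hspa4, Dnaja1 and Ptges3, had 10 or more counts in all 32 libraries. Of the 4916 genes that passed the filter on low counts, 550, or 11.2%, did so, and all 10 genes described here passed that filter.

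Hspa8 and Hsp90ab1 were the steady members. Hspa8 ranged over 16 somata from 135 CPM in neuron 20 through a median of 389.6 to 749 CPM in neuron 25, and over dendrites from 208 CPM in neuron 23 through 379 to 784 CPM in neuron 20. The highest library was thus 5.54 times the lowest in soma and 3.77 times in dendrites, and the ranges overlapped almost wholly. Hsp90ab1, the constitutive HSP90, ran from 334 CPM in the soma of neuron 20 through 1634 to 2233 CPM in that of neuron 26. In dendrites it ran from 939.9 CPM in neuron 8 through 1743 to 3389 CPM in neuron 13. Here the highest library was 6.68 times the lowest in soma and 3.61 times in dendrites.

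Set against all 4916 tested genes, Hspa8 had the smallest spread between somata of any, with an SD of log2 CPM of 0.50 after TMM scaling (n = 16), where the median gene had 3.46. Hsp90ab1 ranked 24 from the least variable, at 0.69. The 245 tested genes with a higher mean level than Hspa8 had a median SD of 1.10 in soma and a lowest one of 0.51. In dendrites these were 1.34 and 0.49, beside 1.13 for Hspa8. Scaled by library totals, Hspa8 ranked 30 with an SD of 0.73 and Hsp90ab1 ranked 65 with 0.80. In dendrites after TMM scaling, Hspa8 ranked 160 with 1.13 and Hsp90ab1 150 with 1.11, and without neuron 20 they ranked 15 with 0.61 and 21 with 0.63. Scaled by library totals with all neurons kept, they ranked 10 with 0.61 and 15 with 0.64 in dendrites. Spread fell as level rose across all tested genes, with a Spearman correlation of -0.45 in soma and -0.49 in dendrites. Another 46 tested genes had a higher mean level than Hsp90ab1. With all neurons, the SD of Hsp90ab1 in dendrites, 1.11, lay above the median of those 46 genes, 1.08, and in soma below it, 0.69 against 0.90. Its dendrite value rests on neuron 20, without which it was 0.63, and the median of the 46 genes was not computed without that neuron. These ranks describe the libraries and were not tested.

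**Figure D2:**
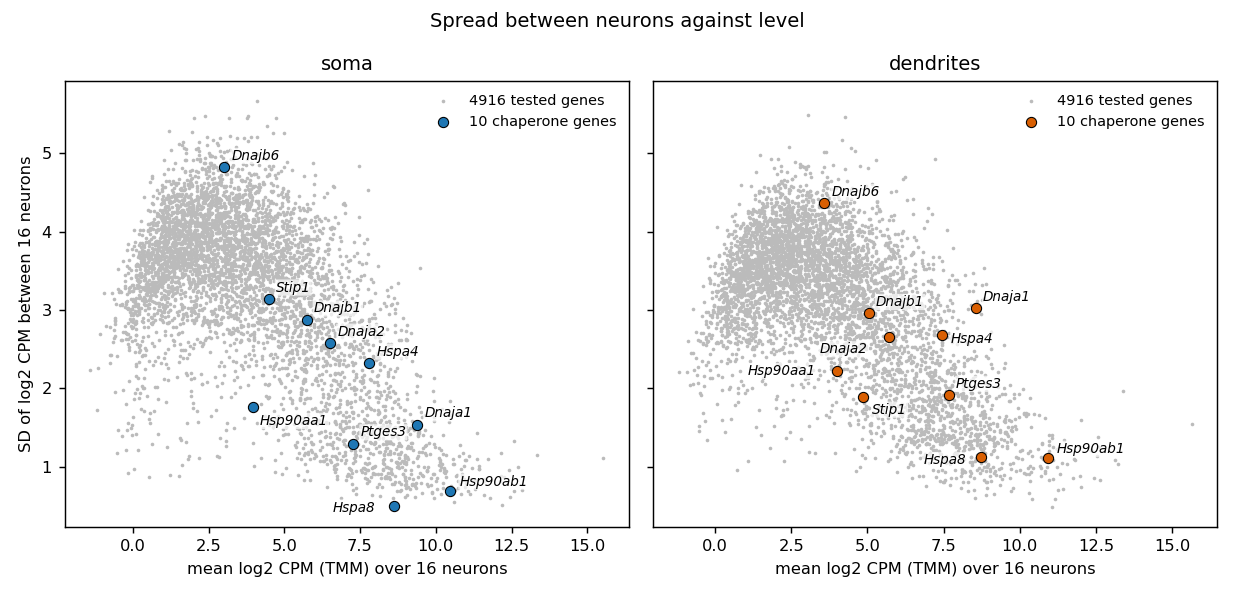
SD of log2 CPM between 16 neurons against mean log2 CPM, for soma and for dendrites, with 4916 tested genes in grey and the 10 chaperone genes named. Hspa8 lies at the lower edge in soma, with an SD of 0.50, and Dnajb6 near the upper edge in both panels, with 4.82 and 4.36.

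Hsp90aa1, the HSP90 form that heat induces more, was less even between libraries than Hsp90ab1. Among the 4916 tested genes its SD of log2 CPM (TMM) still ranked 644 from the least variable in soma. In dendrites it ranked 1017, and 689 without neuron 20. It ranged in soma from 1.78 CPM in neuron 20 through a median of 11.6 to 363 CPM in neuron 8, and in dendrites from 3.73 CPM in neuron 22 through 8.13 to 252 CPM in neuron 7. Few libraries were high: next to neuron 8 came the soma of neuron 25 with 87.7 CPM, and next to neuron 7 the dendrites of neuron 20 with 137.5 CPM. As a share of the counts of both HSP90 genes, Hsp90aa1 had a median of 0.749% in soma and 0.63% in dendrites, with a highest value of 19.1% in the soma of neuron 8 and 7.75% in the dendrites of neuron 7. The share was higher in dendrites in 4 of 16 neurons. The log2 ratio of Hsp90aa1 to Hsp90ab1, dendrites minus soma, averaged -0.35 ± 2.08 (SD, n = 16), with a 95% interval of -1.46 to 0.76 (exact sign-flip permutation p = 0.506, two-sided, 0.999 adjusted over 2 ratios). Leaving out neuron 14, 8 or 25 brought it to -0.11, -0.17 or -0.20, and leaving out neuron 20 or 7 to -0.57 or -0.61. Both genes have similar coding stretches, so some reads could be split between them in counting.

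**Figure D3:**
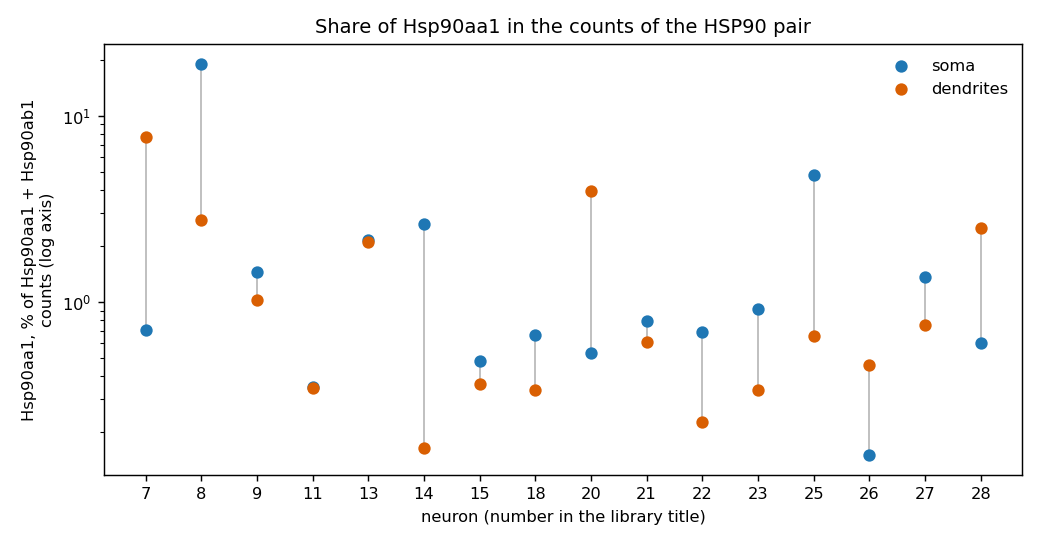
Hsp90aa1 as a percentage of the counts of Hsp90aa1 and Hsp90ab1 together, on a log axis, for the soma and the dendrites of each of 16 neurons, joined by a line. Most libraries lie below 3%, and the soma of neuron 8 (19.1%) and the dendrites of neuron 7 (7.75%) stand highest.

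Hspa4, an HSP110-type exchange factor for HSP70, was counted in every library yet had a wide range of levels. Its SD of log2 CPM (TMM) ranked 927 in soma and 1481 in dendrites from the least variable of 4916 tested genes, so most genes varied more. Its soma levels ran from 2.04 CPM in neuron 27 through 324 to 1002 CPM in neuron 21, a 490-fold range. Its dendrite levels ran from 3.01 CPM in neuron 15 through 352 to 1914 CPM in neuron 8, a 636-fold range. The compartments overlapped, apart from the dendrites of neurons 8 and 23, at 1914 and 1724 CPM, which lay above the highest soma.

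Among J-domain genes, Dnaja1, whose protein is a general HSP70 partner, ranged in soma from 49.4 CPM in neuron 18 through 837 to 2405 CPM in neuron 28. In dendrites it fell as low as 0.727 CPM in neuron 15, with a median of 684 and a highest value of 2166 CPM in neuron 18. Dnaja2, its paralog, had a median of 123 CPM in soma, between 0.274 and 1214, and of 90.6 CPM in dendrites, between 0.0811 and 372. Dnajb1, the classical heat-inducible HSP40, had a median of 94.2 CPM in soma and 99.1 in dendrites. It was absent from the counts of the soma of neuron 11, which allows a level of up to 0.224 CPM, while the dendrites of that neuron held 231 CPM. The log2 ratio of Dnaja1 to Dnaja2 differed between dendrites and soma by 0.0023 ± 5.28 (SD, n = 16), with a 95% interval of -2.81 to 2.81 (exact sign-flip permutation p = 0.999, two-sided, also after adjustment over 2 ratios).

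Dnajb6, whose protein holds back aggregation of polyglutamine proteins, differed most between libraries of the 10. It had 10 or more counts in 9 of 16 somata and 10 of 16 dendrite libraries, and 0 counts in the somata of neurons 11, 18, 20, 26 and 27 and in the dendrites of neurons 15 and 28. These zeros allow levels of up to 0.15 to 2.09 CPM, depending on depth, and such limits cover counting error only, since amplified reads are not independent molecules. The highest soma, that of neuron 15, held 12473 counts or 505 CPM, with 0 counts in its own dendrites. Neuron 18 showed the opposite, with 0 counts in soma and 5592 in dendrites. With libraries of 15 neurons thinned at random to 1071293 counts, Dnajb6 had at least 1 count in 9 somata and 10 dendrite libraries, and Hspa8 and Hsp90ab1 had 10 or more in all 30, with lowest counts of 164 and 321.

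One compartment under 10 counts with the other at 1000 or more was seen in 8 of 160 gene-neuron pairs, or 5.0%, of the 10 genes, and in 8.81% of the pairs of all tested genes. The 8 cases fell to Dnaja2, Dnajb1 and Dnajb6, and the low library was the soma in 3 of them and the dendrites in 5. The dendrites of neuron 15, picked out after their values were seen, held 0.727 CPM of Dnaja1, 2.70 of Dnaja2, 8.51 of Dnajb1, 0 of Dnajb6 and 3.01 of Hspa4. The same library held 474 CPM of Hspa8, 1980 of Hsp90ab1, 56.0 of Stip1 and 147 of Ptges3.

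Stip1, the HSP70-HSP90 adaptor, had a median of 65.1 CPM in soma, with 0 counts in neurons 20 and 28 and a highest value of 124 CPM in neuron 25. In dendrites its median was 48.6 CPM, between 0.232 in neuron 20 and 176.5 in neuron 8. It was low in both compartments of neurons 14, 20, 27 and 28, at most 9.77 CPM. Ptges3, the p23 co-chaperone, had a median of 174 CPM in soma, between 5.78 in neuron 21 and 379 in neuron 25. In dendrites its median was 198 CPM, with a lowest value of 15.9 in neuron 22 and a highest of 1405 in neuron 27, far above the next, 568 CPM in neuron 20.

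The paired comparison asked whether dendrites and soma of the same cell differ in these mRNAs. With edgeR's quasi-likelihood test and the neuron as a block, 0 of the 10 genes passed an adjusted p of 0.05, as did 0 of all 4916 tested genes (0%). At an unadjusted p under 0.05 there were 0 of the 10 genes, against 2.62% of all tested genes. DESeq2's Wald test called 0 of the 10, against 8.2% of all genes, limma-voom called 0 of the 10 (0% of all genes; at an unadjusted p under 0.05, 0 of the 10 against 4.6%), and a sign-flip test per gene also called 0 of the 10 and 0 of all genes. By DESeq2's unadjusted p, 20.6% of all genes lay under 0.05, and 0 of the 10. The 10 genes had a median log2 fold change, dendrites over soma, of -0.13, with 4 above 0 and 6 below. All tested genes had a median of 0.13, with 54.8% above 0. The median of the 10 stayed below 0 with library totals, -0.074, and DESeq2's test, -0.086. It turned to 0.12 in limma-voom (7 above 0), 0.087 in the sign-flip test (6) and 0.21 without the block (6). Over all genes these 3 settings gave 0.20, 0.093 and -0.070.

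Precision differed greatly between the genes. Hsp90ab1 stood at 0.29 ± 0.37 (SE, n = 16 neurons) and Hspa8 at -0.01 ± 0.47, higher in dendrites in 8 and 6 of 16 neurons, each at 0.999 after adjustment in the edgeR fit. For Hspa8 the sign turned with library totals, to 0.041, and with DESeq2 size factors, to 0.022. Ptges3 was at 0.36 ± 0.62, Dnaja1 at -0.29 ± 0.79, Hspa4 at -0.31 ± 0.97, Stip1 at 0.16 ± 0.98 and Hsp90aa1 at -0.25 ± 0.99. Dnaja2 at -0.82 ± 1.09, Dnajb1 at -0.96 ± 1.42 and Dnajb6 at 0.87 ± 1.92 were the least certain. The median SE over all tested genes was 1.53, so 9 of the 10 genes were measured more tightly than the median gene.

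**Figure D4:**
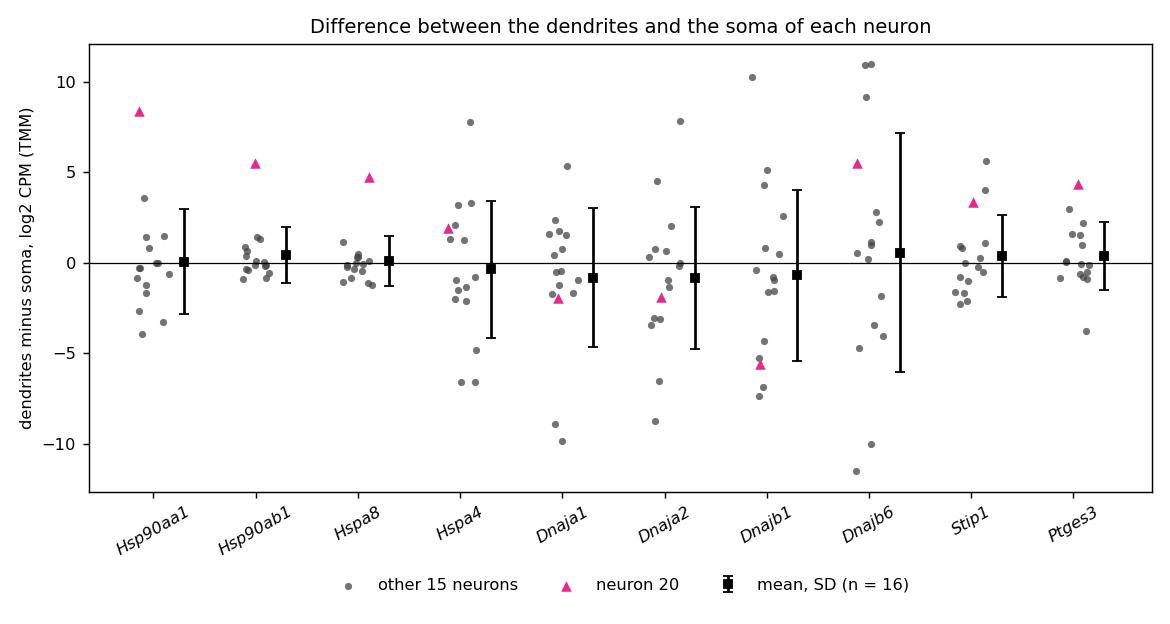
Difference in log2 CPM (TMM) between the dendrites and the soma of each of 16 neurons for the 10 genes, with neuron 20 as a triangle and the mean and SD over 16 neurons as a square with bars. Hspa8 and Hsp90ab1 lie between -1.22 and 1.46 apart from neuron 20, at 4.73 and 5.51, and Dnajb6 spans from -11.51 to 10.98.

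Neuron 20 gave the largest positive difference for Hspa8, Hsp90ab1, Hsp90aa1 and Ptges3, at 4.73, 5.51, 8.38 and 4.36. Unscaled by TMM, its dendrites held 784 CPM of Hspa8 against 135 in its soma. Without neuron 20, Hspa8 stood at -0.13 and Hsp90ab1 at 0.16. The typical absolute difference between soma and dendrites of 1 neuron was 0.40 for Hspa8 and 0.49 for Hsp90ab1 (medians of 16), and 0.58 and 0.70 when the 2 libraries came from different neurons. For Dnajb1 it was 3.46 within a neuron and 1.94 between neurons. These medians are descriptions.

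Soma and dendrite levels of the same cell were weakly related. Across 16 neurons, the Spearman correlation of soma with dendrite log2 CPM had a median of -0.075 over the 10 genes, between -0.32 for Dnajb1 and 0.41 for Stip1, beside a median of 0.071 over all tested genes. Without neuron 20 the median over the 10 genes was -0.0012. Stip1 had a Pearson r of 0.70, and 0.45 without the 2 neurons farthest from its soma median, those with the low values. For Hsp90ab1, r went from -0.39 to 0.40 without the 2 farthest neurons. Of the 10 genes, 3 had a coefficient above 0, against 60.3% of all tested genes. The points share library depth, amplification and scaling, so no p is given for these or the following correlations.

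Pairs of the 10 genes were also weakly related on the whole. Over their 45 pairs, the median Spearman correlation between neurons was 0.02 in soma and 0.10 in dendrites, beside 0.05 in either compartment over all pairs of tested genes. The soma median moved with the setting: it was 0.16 with library totals, 0.12, 0.11 or 0.075 when neuron 28, 26 or 18 was left out, and -0.0036 or -0.0072 when neuron 20 or 11 was. The background was computed with TMM scaling and all neurons only, so on which side of it these values fall is not known. Coefficients of 0.5 or more numbered 1 of 45 in soma (2.22%, against 4.94% of all pairs) and 5 of 45 in dendrites (11.1%, against 4.88%). In soma the pair was Hsp90aa1 and Hspa8, with rho 0.73, Pearson r 0.75, and r 0.63 without the 2 farthest neurons. Farthest means from the median of the pair's first gene in the order of the opening list. Neurons extreme only in the other gene stay in. In dendrites the same pair had rho 0.26, and its r of 0.67 came to 0.099 without the 2 farthest neurons. Hsp90ab1 and Hspa8 in dendrites likewise went from r 0.84 (rho 0.46) to 0.29. The lowest soma coefficient of the 45 pairs, -0.54, was that of Hspa8 with Dnaja1, whose promoters hold the runs of 3 units. In dendrites that pair had rho 0.024, and Hsp90aa1 with Dnaja1 had -0.46 in soma. Whether promoter letters go with co-variation was not tested. Dnajb1 and Stip1 were the pair over 0.4 in both compartments, with rho 0.46 in soma and 0.61 in dendrites. Without the 2 neurons farthest from the median of Dnajb1, their rho was 0.345 and 0.556. Pearson r for them was 0.23 and 0.47, and 0.085 and 0.43 without the same neurons, so in soma the relation shows in ranks and little in r.

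**Figure D5:**
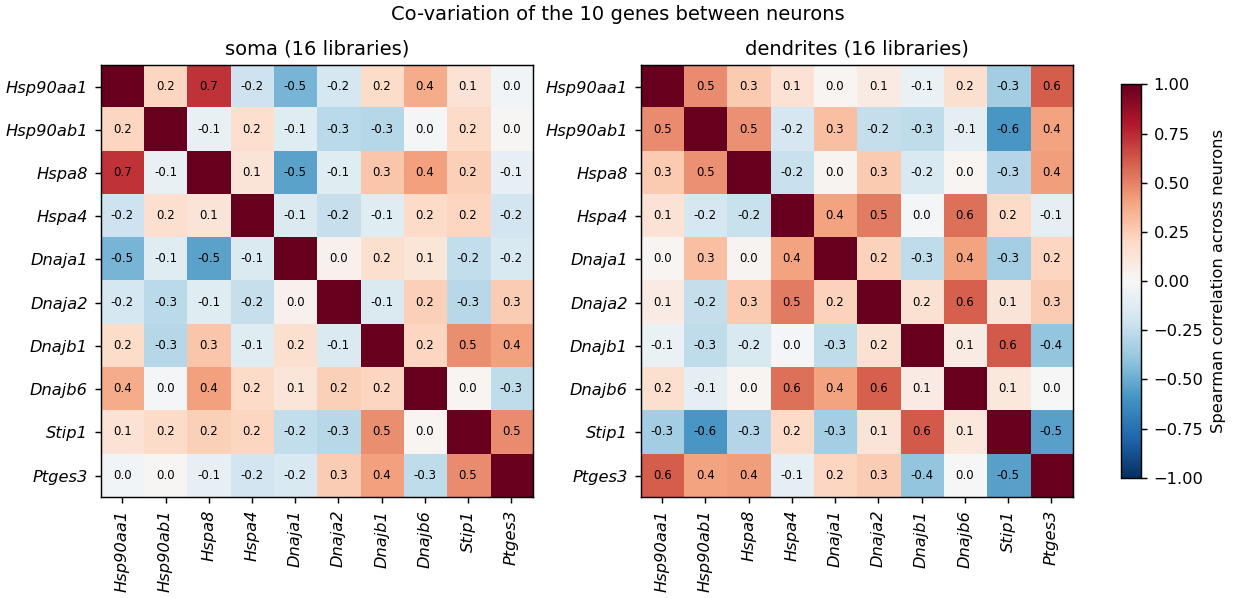
Spearman correlations of log2 CPM (TMM) between neurons for all pairs of the 10 genes, in 16 soma and in 16 dendrite libraries, with red above 0 and blue below. Most cells are pale, Hsp90aa1 with Hspa8 in soma (0.73) and Dnajb1 with Stip1 in dendrites (0.61) are the reddest, and the patterns of the panels differ.

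Hspa4 in dendrites had rho 0.55 with Dnajb6, 0.52 with Dnaja2, 0.40 with Dnaja1 and -0.012 with Dnajb1, and Dnaja2 with Dnajb6 stood at 0.60. Without the 2 farthest neurons, r fell from 0.58 to 0.32, from 0.45 to 0.32 and from 0.69 to -0.05 for Hspa4 with Dnajb6, Dnaja2 and Dnaja1, so the last rests on those neurons. In soma Hspa4 had rho 0.19 with Dnajb6, -0.23 with Dnaja2, -0.14 with Dnaja1 and -0.12 with Dnajb1, and Dnaja2 with Dnajb6 stood at 0.24. The remaining dendrite pair over 0.5 was Hsp90aa1 with Ptges3, at 0.60, against -0.03 in soma. In dendrites Stip1 had rho -0.58 with Hsp90ab1 and -0.54 with Ptges3, while in soma these stood at 0.19 and 0.48. The dendrites of neuron 20 held the lowest Stip1 and, after TMM scaling, the highest Hsp90ab1 and Ptges3 of all. Without the 2 neurons farthest from the median of Hsp90ab1, r of Stip1 with Hsp90ab1 in dendrites went from -0.69 to -0.44. Without the 2 farthest from that of Stip1, r of Stip1 with Ptges3 went from -0.70 to -0.30. Whether compartments differ in any of these pairs was not tested.

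Genes whose pattern over the 32 libraries was most like that of a chaperone, after centring within compartments, lay outside the 10. Ranks are among the 4916 tested genes, of which the 10 are a small part, so they do not show whether the 10 are alike. For Hspa8 they were Clptm1, Atg5 and Fam69b, with rho 0.63, 0.62 and 0.59, while Hsp90aa1, the nearest of the 10, ranked 124 at 0.47. For Hsp90aa1 they were Seli, Mccc2 and Hdac11, with 0.66, 0.64 and 0.64, and Hspa8 ranked 94 at 0.47. For Hsp90ab1 they were Nedd8, Dhx30 and Phospho2, with 0.57, 0.55 and 0.55, and Hsp90aa1 ranked 56 at 0.39. Some of these genes were low, with medians in soma and dendrites of 0 and 1.87 CPM for Atg5 and 0.375 and 1.75 for Seli. Mccc2 had 1.16 and 7.91 CPM and Phospho2 5.60 and 1.54, while Nedd8 had 724 and 659.

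Other genes of the pathway came in 5 lists, and 0 of their tested genes passed the adjusted threshold with edgeR. Other HSP70 genes and exchange factors had 11 tested of 19 sought, with 4 above 0 and 7 below and a median log2 fold change of -0.23. Hspa1b, the heat-induced HSP70 gene, was at 3.64 ± 1.68 (SE, n = 16), higher in dendrites in 12 of 16 neurons, with p = 0.0393 before and 0.999 after adjustment in the edgeR fit. Its level averaged 48.4 ± 92.1 CPM in soma, where 5 libraries reached 10 counts, and 81.3 ± 141 CPM in dendrites, where 11 did (SD, n = 16 each), and reads may be split with its near-identical copy Hspa1a. Hspa13 stood at 2.30 ± 1.71 and Hspa14 at -3.46 ± 2.58.

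HSP90 co-chaperones had 17 tested of 24 sought, 6 above 0 and 11 below, with a median of -0.28. Ppid, the cyclophilin that binds HSP90, was at -3.41 ± 1.63 (unadjusted p = 0.0462 in edgeR's test) and higher in dendrites in 4 of 16 neurons. Cdc37l1, a relative of the kinase adaptor CDC37, was at 4.09 ± 1.93 (unadjusted p = 0.0456 in edgeR's test) and higher in 10, and Cacybp at -1.09 ± 0.65. J-domain co-chaperones other than the 4 above had 8 tested of 14 sought, 4 above 0 and 4 below, with a median of 0.06, Dnajb2 at -2.42 ± 1.36, Dnajc27 at 1.56 ± 0.90 and Dnajc7 at -3.30 ± 1.97.

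Of heat shock factors and small heat shock proteins, 2 of 12 sought were tested, Hsbp1 at 0.45 ± 0.38 and Hsf2 at -1.26 ± 1.18. No library reached 10 counts of Hspb1, a small heat shock protein gene, and Hspb2 and Hspb3 were at 0 counts in all. Chaperones of the endoplasmic reticulum and mitochondria had 9 tested of 13 sought, 4 above 0 and 5 below, with a median of -0.14, Hspa9 at -1.78 ± 1.23 (although its mean CPM was 2.12 in soma and 12.7 ± 47.5 in dendrites), Dnajb9 at 3.34 ± 2.51 and Dnajc10 at 1.34 ± 1.21. The adjusted p from edgeR was 0.999 for every gene named in these 5 lists.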

How the data were processed

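The authors deposited whole-number counts per gene symbol for each library, used here as raw counts; 92 spike-in rows stayed out. Per the submitters' processing notes the build was rn6. Aligner, annotation, strand setting and the handling of multiply matching reads: not given in the sources used here. Therefore genes with close copies or pseudogenes are uncertain. The 10 genes, the lists and the tests were chosen with earlier results of these data known. Groups and pairs came from the titles. The series text states that same-numbered libraries share a cell. Their centred profiles correlated at 0.0678 on average (Spearman, -0.054 to 0.193, 4 of 16 over 0.1). Those of different neurons correlated at -0.00054 (-0.172 to 0.259), so the ranges overlap and the profiles alone do not settle the pairing. No libraries matched within sampling noise (smallest chi-square per degree of freedom 278 in soma, 68.9 in dendrites).

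Counts were analysed with edgeR 4.0.16 in R 4.3.3: filterByExpr (minimum count 10), TMM, glmQLFit (robust) with neuron as block, Benjamini-Hochberg over 4916 genes, threshold 0.05. Each SE was derived from the fold change and its F statistic. CPM used all gene counts, and log2 CPM the TMM scale with a prior count of 2. Ratios used a pseudocount of 0.5. An absent gene's limit is 3 counts of the library total. Alternatives used DESeq2 1.42.0 and limma 3.58.1, other scalings and filters, and left-out neurons. The edgeR step was tested on simulated data. At the spread of these data it missed most of the changes put in, so an absence of calls does not mean equal levels. Named genes were the 10, per list up to 3 with the smallest unadjusted p, and the 3 most alike outside the 10 per HSP gene with high counts or, for Hsp90aa1, its paralog. Coordinates are given for promoters only, in GRCr8.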

Additional observations from a re-analysis of the deposited data

Results flagged for a closer look

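Spike-in RNAs, which entered no comparison of the chaperone genes, were counted in each of the 32 libraries and made up between 0.0605 and 4.33% of a library's counts (median 0.482%); there were no libraries free of them to set this against.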

How the results depend on the processing

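In the 26 alternative settings, edgeR, DESeq2, limma-voom or the sign-flip test called 0 of the 10 genes, while over all genes DESeq2's Wald test called 403 and edgeR without a filter on low counts called 1, against 0 (the cause was not tested). Of 259 fold changes of single genes under alternatives, 231 kept their direction and 28 turned, none past the threshold. With no replicate block, Hsp90aa1 turned to 0.91, Hspa8 to 0.73, Hspa4 to 0.11 and Stip1 to -0.21 on the log2 scale. The block changed no call. Without it, edgeR's test gave 2 of the 10 genes an unadjusted p under 0.05, as it did 336 of all 4916 genes. With the block these were 0 and 129. The lowest adjusted p of the 10 without the block was 0.506 in edgeR's test. Hspa8 also turned to 0.022 with DESeq2 size factors and with DESeq2's test, 0.041 with library totals, 0.090 with limma-voom, 0.053 without neurons 7, 8 and 9, and 0.11 with the sign-flip test, where Hsp90aa1 stood at 0.061. In limma-voom Hspa4 was at 0.050 and Dnaja1 at 0.58. Without neurons 20 and 25, Dnajb6 was at -0.10 and Stip1 at -0.064. Leaving out 1 neuron each gave Hspa8 -0.13 to 0.14, Hspa4 -0.71 to 0.021 and Stip1 -0.087 to 0.35. The Dnaja1 to Dnaja2 ratio difference ranged from -0.75 to 0.64 over such fits, and was -0.067 with a pseudocount of 5, -0.12 in neurons with 10 or more counts of both genes throughout, and -0.18 without neurons 7, 8 and 9. The SD of log2 CPM, an alternative chosen after seeing the data, was 0.73 for Hspa8 in soma with library totals. In dendrites, it was 0.61 for Hspa8 and 0.64 for Hsp90ab1 with library totals, 0.61 and 0.63 without neuron 20, and 0.58 for both without neurons 20 and 25. Leaving out 1 neuron each, the median correlation between the 10 genes ranged from -0.0072 to 0.12 in soma and from 0.052 to 0.14 in dendrites, and that of soma with dendrites from -0.14 to -0.0012. The Hsp90aa1 to Hsp90ab1 ratio difference ranged from -0.61 to -0.11 over such fits, and was -0.21 with a pseudocount of 5 and -0.11 in neurons with 10 or more counts of both genes throughout. Depth sets the limit for genes at 0 counts, up to 2.09 CPM in the dendrites of neuron 28.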
